A study of Homo sapiens with 45 samples.

Results

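The adrenergic (ADRN) transcription factors described here were chosen by a list of 9 symbols, PHOX2A, HAND1, HAND2, GATA2, GATA3, ISL1, TBX2, TFAP2B and INSM1. They are 9 of the 29159 genes counted, and all 9 were found in the counts of every line. RNA-seq was made from 3 established human neuroblastoma lines of ADRN type (IMR-32, SH-SY5Y and SK-N-BE(2)C), as untreated control and with the CDK4/6 inhibitor palbociclib (PB) for 24 h or for longer. The longer time was 7 days for SK-N-BE(2)C but 5 days for the other lines, so time and line cannot be told apart there, nor can long PB and long culture, since controls were harvested alongside the 24 h cultures. There were 5 replicates in each of 9 groups, which the study describes as separate passages from independent experiments. The cells were bulk cultures, in which fewer cells of a type and less RNA per cell cannot be told apart. SK-N-BE(2)C and IMR-32 carry MYCN amplification and SH-SY5Y does not, and each line is 1 cell line rather than a panel of its genotype.

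In the sympathoadrenal lineage, which gives rise to sympathetic neurons and chromaffin cells, these factors bind their own and each other's enhancers and so form a core regulatory circuit (CRC). PHOX2A is a paired-like homeodomain factor and ISL1 a LIM-homeodomain factor that acts through LDB cofactors. HAND1 and HAND2 are basic helix-loop-helix factors that pair with E proteins, while GATA2 and GATA3 are zinc finger factors assisted by FOG proteins. TBX2 is a T-box repressor, TFAP2B is an AP-2 factor and INSM1 is a zinc finger repressor of neuroendocrine cells. Genes of noradrenaline synthesis, such as TH and DBH, are among the targets of this lineage's circuit.

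The DNA just upstream of the transcription start is printed for 1 start of each member whose window lies outside protein-coding exons and held letters of a searched motif, to show which of the circuit's own binding letters stand there. Where a gene had several such starts, 1 is shown as an example. The TFAP2B window overlaps an exon of TFAP2B and is not printed. The sequences are RefSeq entries of a table built on GRCh38.p14, cut to the 250 bases before the start, and each was found once on its chromosome of GRCh37, whose coordinates are given. Capitals mark letters that matched a searched motif on either strand.
PHOX2A, chr11:71955221-71955470, minus strand: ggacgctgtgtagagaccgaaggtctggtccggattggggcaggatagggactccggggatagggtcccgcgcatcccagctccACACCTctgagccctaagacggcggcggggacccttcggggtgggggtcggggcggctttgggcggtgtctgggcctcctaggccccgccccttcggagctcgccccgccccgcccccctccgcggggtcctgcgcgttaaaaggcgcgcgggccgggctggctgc
ISL1, chr5:50679032-50679281, plus strand: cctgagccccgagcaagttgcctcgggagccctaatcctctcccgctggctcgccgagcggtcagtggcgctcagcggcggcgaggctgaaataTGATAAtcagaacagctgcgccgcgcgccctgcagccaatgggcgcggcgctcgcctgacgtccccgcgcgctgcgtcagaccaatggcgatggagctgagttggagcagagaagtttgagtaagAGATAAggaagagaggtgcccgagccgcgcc
HAND2, chr4:174451381-174451630, minus strand: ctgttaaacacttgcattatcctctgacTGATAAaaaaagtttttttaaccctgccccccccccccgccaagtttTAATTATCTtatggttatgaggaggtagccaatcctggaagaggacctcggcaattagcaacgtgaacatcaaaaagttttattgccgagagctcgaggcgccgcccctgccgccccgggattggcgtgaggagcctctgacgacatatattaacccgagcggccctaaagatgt
HAND1, chr5:153857788-153858037, minus strand: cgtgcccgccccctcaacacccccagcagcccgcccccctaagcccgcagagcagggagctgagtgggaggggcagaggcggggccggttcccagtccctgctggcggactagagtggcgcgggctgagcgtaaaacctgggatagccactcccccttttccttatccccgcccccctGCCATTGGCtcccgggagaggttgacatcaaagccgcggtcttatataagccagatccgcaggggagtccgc
GATA2, upstream start, chr3:128212045-128212294, minus strand: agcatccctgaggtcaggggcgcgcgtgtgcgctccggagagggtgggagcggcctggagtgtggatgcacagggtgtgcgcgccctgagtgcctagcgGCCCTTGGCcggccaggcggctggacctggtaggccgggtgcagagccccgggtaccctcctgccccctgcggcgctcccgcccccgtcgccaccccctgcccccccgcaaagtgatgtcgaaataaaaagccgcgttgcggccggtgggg
GATA3, chr10:8096401-8096650, plus strand: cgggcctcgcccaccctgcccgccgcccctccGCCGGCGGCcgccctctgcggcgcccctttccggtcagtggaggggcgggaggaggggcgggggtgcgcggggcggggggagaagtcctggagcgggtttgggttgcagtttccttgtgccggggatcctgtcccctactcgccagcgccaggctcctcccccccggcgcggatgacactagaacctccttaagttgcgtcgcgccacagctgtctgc
Of the 9 genes, 7 had entries in the promoter table, with 13 starts in all. TBX2 and INSM1 had none. The HAND2 window held 2 GATA matches (AGATAA or TGATAA) and a homeodomain core (TAATTA) that overlaps one of them, and the ISL1 window held 2 GATA matches. Among 35116 windows of the same length, 14.6% held a GATA match and 4.35% the homeodomain core. The AP-2 letters GCCNNNGGC stood in the HAND1 window, in both GATA2 windows and in 3 of 6 GATA3 windows, against 19.8% of all windows. The T-box core AGGTGT stood in the PHOX2A window and in 1 GATA3 window, against 9.57% of all. No window of these genes held the E-box CATCTG, the E2F letters TTTGGCGC or TTTCGCGC, or the CHR letters TTTGAA, which 12.2%, 0.968% and 13.3% of all windows held. A match describes the letters and not binding.

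Libraries held 13459219 to 25441812 counts. Levels are in CPM, a count scaled to a library total of 1000000, and between genes they are compared as CPM per kb of exon. In IMR-32 the replicate 5 cultures stood apart in all 3 groups. The 24 h library of replicate 2 also stood apart, at a chi-square per degree of freedom of 40.4 to 44.7 from replicates 1, 3 and 4. Among replicates 1, 3 and 4 at 24 h it was 3.93 to 9.51. Untreated replicate 5 held 1354 CPM summed over 17 mesenchymal markers against 725 to 811 in the other 4 replicates, and 853 CPM over 15 sympathoadrenal target genes against 1165 to 1476. In the same library 6 of the 8 members with counts lay below the other 4 replicates and 2 above, so IMR-32 results are also given without replicate 5 in all groups where a call changes, an alternative chosen after seeing the data. Replicates 1 and 2 of SK-N-BE(2)C also stood apart from replicates 3 to 5 in control and at 24 h. In control the chi-square per degree of freedom was 12.8 to 19.2 between these sets and 2.43 to 3.18 among replicates 3 to 5. At 24 h it was 16.4 to 23.6 against 1.69 to 2.42. Replicates 1 and 2 also differed from each other, at 11.2 in control and 7.05 at 24 h. At 7 days the sets did not separate, since replicate 3 was as far from replicates 4 and 5 (28.8 and 29.5) as replicates 1 and 2 were (19.3 to 26.5). Values for replicates 3 to 5 alone, also chosen after seeing the data, are given where a call changes. Schwann cell markers summed to at most 26.4 CPM in any library, and their part in any result was not tested. PB lowered 8 of 8 proliferation markers at 24 h in each line, with median log2 fold changes of -3.47, -3.37 and -4.49, where 10.6%, 10.5% and 11% of all genes were lower. Where 3 values are given they run from SK-N-BE(2)C through IMR-32 to SH-SY5Y. From 24 h to the longer time 0, 8 and 7 of these 8 markers were higher, with medians of 0.31, 1.88 and 1.57, where 17.5%, 10.8% and 10.5% of genes were, and their part in member changes between the treated times was not tested.

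The untreated lines did not carry the same set of factors. TFAP2B was at 0 counts in all 5 IMR-32 control libraries, GATA2 was near 4 CPM there, and INSM1 was abundant in IMR-32 alone. Per kb of exon, PHOX2A was the highest of the 9 in each line, at 323 ± 45.1, 216 ± 53.9 and 348 ± 39.4 CPM per kb (SD, n = 5). The next were HAND1 in SK-N-BE(2)C (277 ± 34.3) and HAND2 in IMR-32 (206 ± 39.8) and SH-SY5Y (335 ± 19.7), and the libraries of these neighbours overlapped those of PHOX2A in each line. The lowest were TFAP2B in IMR-32 and INSM1 in the other lines.

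**Figure D1:**
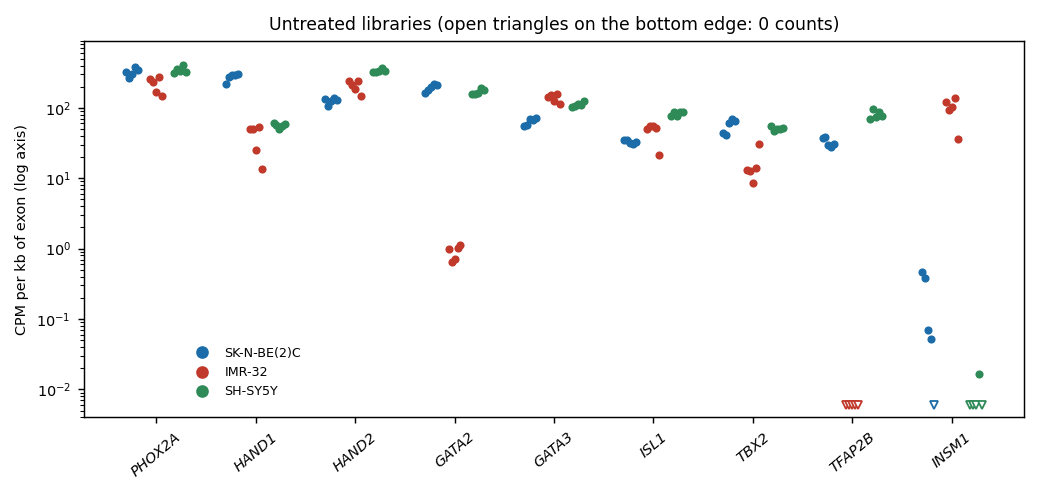
Level of each factor in the 15 untreated libraries, as CPM per kb of exon on a log axis, 1 point a library and 1 colour a line. Open triangles on the bottom edge are libraries with 0 counts: all 5 IMR-32 libraries for TFAP2B, and for INSM1 4 of SH-SY5Y plus 1 of SK-N-BE(2)C.

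Between untreated lines, the fit of all 45 libraries called 7 of 8 members that had enough counts for SK-N-BE(2)C against IMR-32, 5 of 8 between SK-N-BE(2)C and SH-SY5Y, and 5 of 7 between IMR-32 and SH-SY5Y. A call is a Benjamini-Hochberg adjusted p under 0.05 with a log2 fold change beyond 0.5. Of all 16282 genes tested, 62.1%, 57.5% and 54.2% were called in these comparisons, so a difference between these lines is common. Among genes with enough counts in both lines, as asked of the members, the shares were 57.9%, 54.7% and 49%. INSM1 counts were 7921, 5253, 5313, 9462 and 1793 in untreated IMR-32, 28, 25, 4, 2 and 0 in SK-N-BE(2)C, and 0, 0, 0, 1 and 0 in SH-SY5Y, for replicates 1 to 5. IMR-32 thus stood above every library of the other lines, by 474-fold over SK-N-BE(2)C (95% exact interval 367 to 623) and by 29590-fold over the single SH-SY5Y count (5311 to 1169000), intervals that cover counting error only.

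TFAP2B held 19890 counts over the 5 SK-N-BE(2)C controls and 50419 over those of SH-SY5Y. In IMR-32 the control total was 0 of 102285185 counts, which allows up to 0.0293 CPM, and TFAP2B was at least 7054-fold and 16892-fold lower than in the other lines when 3 counts over the group are taken as the floor. IMR-32 was the line with the related AP-2 gene TFAP2A, named after its values were seen, at 19.4 ± 5.08 CPM (SD, n = 5) against 0.101 ± 0.0772 in SH-SY5Y and 0.0561 ± 0.0770 in SK-N-BE(2)C. GATA2 was 7.76 ± 0.20 (log2, SE) higher in SK-N-BE(2)C than in IMR-32 (adjusted p = 2.11e-31) and differed by 0.40 ± 0.14 between SK-N-BE(2)C and SH-SY5Y, inside the limit of 0.5.

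HAND1 was highest in SK-N-BE(2)C, by 2.86 ± 0.25 over IMR-32 (adjusted p = 3.74e-13) and 2.48 ± 0.25 over SH-SY5Y (adjusted p = 1.45e-11), on the log2 scale. IMR-32 and SH-SY5Y did not pass the test for HAND1 (-0.38 ± 0.24, adjusted p = 0.155), except with library size alone (-0.56, adjusted p = 0.0347), which also moved the median of all genes by -0.18. HAND2 followed another order, with SH-SY5Y above IMR-32 by 0.52 ± 0.10 (0.49 and 0.43 without replicate 3 or 5, inside the limit) and IMR-32 above SK-N-BE(2)C by 0.68 ± 0.10. GATA3 was 1.08 ± 0.13 lower in SK-N-BE(2)C than in IMR-32 and 0.60 ± 0.13 lower than in SH-SY5Y, and IMR-32 and SH-SY5Y differed by 0.49 ± 0.13, just inside the limit. ISL1 was highest in SH-SY5Y, TBX2 was lowest in IMR-32 (1.85 ± 0.28 below SK-N-BE(2)C) and PHOX2A was lowest in IMR-32 (0.60 ± 0.13 below SK-N-BE(2)C). Without replicate 5, the IMR-32 and SH-SY5Y difference of ISL1 went from -0.63 to -0.43, and that of PHOX2A between IMR-32 and SK-N-BE(2)C to 0.47, both inside the limit. The PHOX2A difference of IMR-32 from SH-SY5Y, -0.50 ± 0.13, lay at the limit and was -0.45 and -0.43 without replicate 3 or 5. It also fell inside the limit with DESeq2, RLE factors or no filter.

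With PB, every member called against control in the fits of all libraries of a line was higher, at either time. At 24 h the calls were PHOX2A, HAND2, GATA3 and ISL1 in IMR-32, PHOX2A in SH-SY5Y and none in SK-N-BE(2)C. At the longer time they were GATA2 and TFAP2B in SK-N-BE(2)C, TBX2 in IMR-32, and ISL1 and TFAP2B in SH-SY5Y, so no member was called in all 3 lines.

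**Figure D2:**
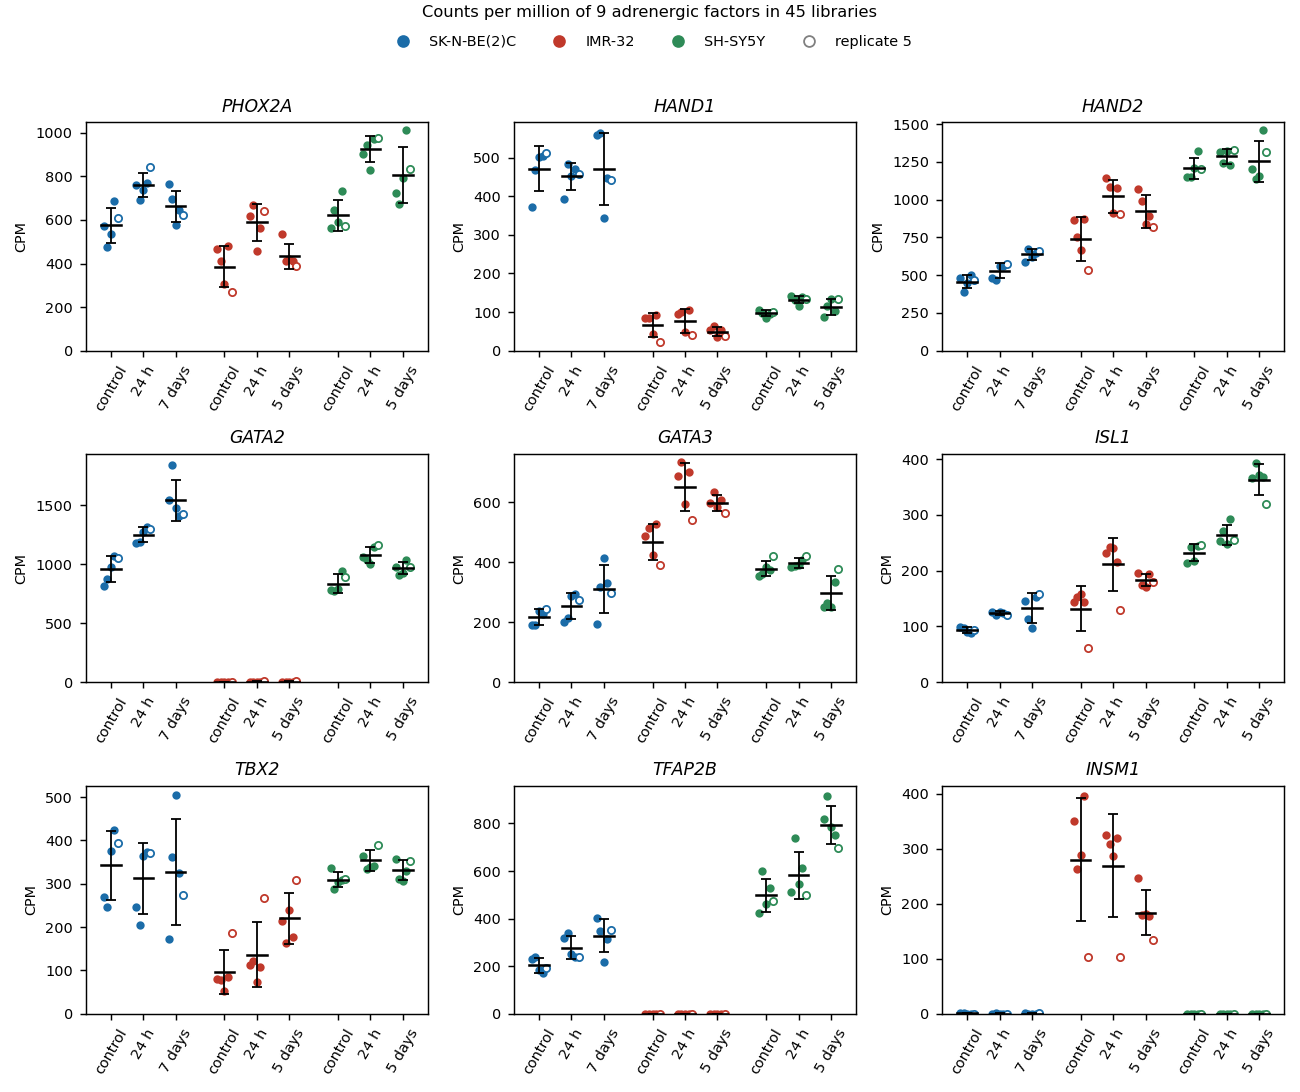
CPM of each factor in the 45 libraries, 1 panel a gene with its own axis from 0. Points are libraries, open points replicate 5, horizontal bars group means and error bars SD (n = 5). PHOX2A at 24 h lies above all controls in SK-N-BE(2)C and SH-SY5Y, and GATA2, TFAP2B and INSM1 lie at or near 0 in 1 or more lines.

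The shares called give the setting for these counts. In IMR-32 at 24 h, 4 of 8 members tested were higher, where 7.87% of 14293 genes were. That count was 5 with the replicate number as a block, TBX2 being the fifth (0.55, adjusted p = 0.0316). It was 2 with DESeq2, RLE factors or library size alone. Without replicate 2 in all groups, the number whose 24 h library stood apart, it was 1. These alternative counts have no share of all genes beside them. In SH-SY5Y at 24 h, 1 of 8 was higher, where 10.5% of genes were. In SK-N-BE(2)C at 24 h, edgeR called 0 of 9, where 21.5% of genes were called in either direction. DESeq2 also called 0 there. At an unadjusted p under 0.05 there were 5 of 9, and the same 5 (PHOX2A, HAND2, GATA2, ISL1 and TFAP2B) had an adjusted p under 0.05 with log2 values of 0.18 to 0.42, inside the limit. More of all genes than 21.5% pass these looser rules, so this count is not read against that share. Numbers of all genes without the limit are in the section on processing dependence. At the longer time 2 of 9, 1 of 8 and 2 of 8 members were higher, where 24.5%, 16.6% and 18.6% of genes were. With the block the IMR-32 count was 2, ISL1 being the other, again with no share of all genes beside it. The median log2 fold change of the members tested was 0.19, 0.52 and 0.20 at 24 h. With longer PB it was 0.44, 0.23 and 0.15. These stand beside medians over all genes of 0.02, 0.06 and 0.04, and 0.01, 0.00 and 0.01. TFAP2B in IMR-32 and INSM1 in SH-SY5Y had too few counts to test. At 24 h, 1, 0 and 0 mesenchymal markers were higher and 3, 1 and 5 lower, of 12, 10 and 14 tested, where 10.6%, 10.5% and 11% of all genes were lower. With longer PB 1, 0 and 2 were higher and 7, 7 and 8 lower, where 22.3%, 15.5% and 17.3% of all genes were lower, and their part in the member values was not tested.

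**Figure D3:**
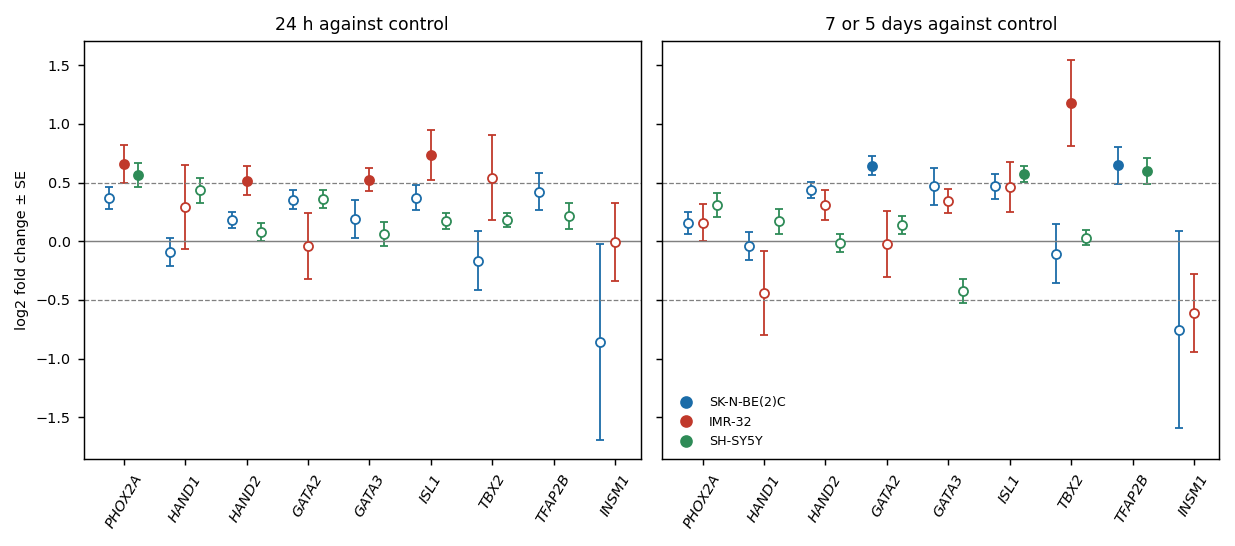
Log2 fold change against control with its SE for each factor, at 24 h (left) and at 7 or 5 days (right), 1 colour a line. Filled points were called, dashed lines mark the limit of 0.5, and every filled point lies above the upper one.

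PHOX2A (ENSG00000165462, chr11:71950121-71956708, GRCh37) was called at 24 h and not at the longer time. In SH-SY5Y it was at 565, 646, 589, 733 and 573 CPM in control replicates 1 to 5 and at 904, 946, 831, 970 and 976 CPM after 24 h. All 24 h libraries lay above all controls, and the fold change was 0.56 ± 0.10 (log2, SE, adjusted p = 2.02e-04), or 0.49 without replicate 5 in all groups, inside the limit. SK-N-BE(2)C libraries were at 574, 474, 535, 688 and 611 CPM in control and at 759, 691, 739, 771 and 844 CPM at 24 h, again without overlap, with 0.37 ± 0.09 (adjusted p = 0.00423), inside the limit. In IMR-32 control libraries held 466, 410, 305, 483 and 267 CPM and 24 h libraries 616, 668, 457, 562 and 642 CPM, a fold change of 0.66 ± 0.16 (adjusted p = 0.00476). There the 24 h library of replicate 3 fell inside the control range, although each replicate number was higher than its own control.

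At the longer time PHOX2A differed from control by 0.16 ± 0.09, 0.16 ± 0.16 and 0.31 ± 0.10 on the log2 scale, with no call. In the step from 24 h to 5 days in IMR-32 it was called lower without the replicate block (-0.50 ± 0.16, adjusted p = 0.0227), 1 of 8 members tested where 8.86% of genes were lower. With the replicate number as a block 4 of 8 were called in this step, PHOX2A (-0.50, adjusted p = 0.00689), HAND1 and INSM1 lower and TBX2 higher. The 8.86% is from the fit without the block, and no share of all genes with the block stands beside this count. Same-numbered libraries also paired weakly between these times, with the same number the closest match for 1 of 5. PHOX2A was lower in 5 of 5 replicate numbers but lay at the limit, and without the block the call was lost without any 1 of 7 libraries, with values of -0.49 to -0.43, and with DESeq2, RLE factors or library size alone. In SK-N-BE(2)C as well as SH-SY5Y, edgeR and DESeq2 called 0 of 9 and 0 of 8 members between the treated times, where 31.9% and 16.7% of genes were called in either direction. At an unadjusted p under 0.05 there were 3 and 7, and at an adjusted p under 0.05 without the fold change limit 2 and 4. More of all genes than 31.9% and 16.7% pass these looser rules, so these counts are not read against those shares. The genes that pass the adjusted p alone are numbered in the section on processing dependence.

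ISL1 (ENSG00000016082, chr5:50679282-50690564) gave positive log2 fold changes at both times in each line, of which 2 were called. In SH-SY5Y it went from 214, 243, 217, 243 and 245 CPM in control to 366, 393, 372, 368 and 319 CPM at 5 days. No library overlapped, and the fold change was 0.57 ± 0.07 (adjusted p = 7.5e-07). Control libraries of SK-N-BE(2)C lay between 87.4 and 99.3 CPM and the 24 h libraries between 120 and 127 CPM, a difference of 0.37 ± 0.10 (adjusted p = 0.00847). At 7 days it was 0.47 ± 0.10 (adjusted p = 8.09e-04), and both values lay inside the limit. With replicates 3 to 5 alone the 7 day value was 0.53 (adjusted p = 0.015), past it. In IMR-32 the control libraries held 143, 154, 158, 144 and 61.0 CPM and the 24 h libraries 231, 242, 240, 216 and 129 CPM. Replicate 5 was the lowest in both groups, and each number was higher than its own control by 1.505 to 2.109 times, with 0.73 ± 0.22 over the group (adjusted p = 0.0162). The adjusted p was 0.0511 to 0.0676 when any 1 of replicates 1 to 4 was left out of all groups. At 5 days the IMR-32 libraries held 171 to 196 CPM, all above all controls, with 0.46 ± 0.21 (adjusted p = 0.0821). With the replicate number as a block this became 0.54 (adjusted p = 0.0114), past the limit.

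HAND2 (ENSG00000164107, chr4:174446120-174451380) was called against control in IMR-32 at 24 h alone. SK-N-BE(2)C had 481, 388, 448, 499 and 469 CPM in control and at 588, 675, 621, 647 and 657 CPM at 7 days. The groups did not overlap and the difference of 0.44 ± 0.07 (adjusted p = 3.14e-05) lay inside the limit. In IMR-32 the 24 h change was 0.52 ± 0.13 (adjusted p = 0.00529), from 869, 754, 667, 875 and 536 CPM to 1143, 1086, 912, 1076 and 903 CPM, and every 24 h library was above every control. That call rests on the limit, since the value was 0.42 without control replicate 5, 0.48 without control replicate 3 or 24 h replicate 1 or 2, and 0.47 without replicate 5 in all groups. In SH-SY5Y, where untreated HAND2 was highest, it did not pass the test at 24 h (0.08 ± 0.08, adjusted p = 0.404) or at 5 days (-0.01 ± 0.08, adjusted p = 0.882).

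HAND1 (ENSG00000113196, chr5:153854532-153857787) gave no call against control in any line. In SH-SY5Y its control libraries lay between 83.9 and 105 CPM and its 24 h libraries between 116 and 140 CPM, a difference of 0.43 ± 0.11 (adjusted p = 0.00268) without overlap. In IMR-32 HAND1 was at 84.7, 85.2, 43.2, 92.1 and 22.9 CPM in control, at 94.8, 98.8, 48.1, 105 and 40.3 CPM at 24 h and at 52.2, 64.4, 35.7, 52.8 and 37.9 CPM at 5 days. Replicates 3 and 5 were low at all times. From 24 h to 5 days all 5 replicate numbers were lower, by -0.74 ± 0.36 (adjusted p = 0.128) without the block, by -0.64 (adjusted p = 0.00581) with it, and by -0.83 (adjusted p = 0.0318) without replicate 5.

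GATA2 (ENSG00000179348, chr3:128198270-128212044) was called in SK-N-BE(2)C at 7 days. Its controls held 813, 877, 977, 1074 and 1053 CPM, the 24 h libraries 1176, 1192, 1273, 1312 and 1301 CPM, and the 7 day libraries 1548, 1843, 1480, 1409 and 1426 CPM. The 3 groups did not overlap, and the fold change was 0.35 ± 0.08 at 24 h (adjusted p = 0.00213) and 0.64 ± 0.08 at 7 days (adjusted p = 2.7e-06). With replicates 3 to 5 alone the 7 day value was 0.42 (adjusted p = 7.45e-06), inside the limit. In SH-SY5Y GATA2 was 0.36 ± 0.08 at 24 h (adjusted p = 6.95e-04) and 0.14 ± 0.08 at 5 days. In IMR-32 it stayed at 46 to 128 counts a library. The difference in the longer response between SK-N-BE(2)C and IMR-32 was 0.70 ± 0.23 (adjusted p = 0.0184), with an adjusted p of 0.104, 0.0925 or 0.0803 without replicate 1, 2 or 4.

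GATA3 (ENSG00000107485, chr10:8087341-8117161) gave changes of opposite sign in different lines, of which the 24 h rise in IMR-32 was called. In IMR-32 it rose at 24 h, from 486, 515, 424, 526 and 390 CPM to 687, 734, 594, 700 and 540 CPM, by 0.52 ± 0.10 (adjusted p = 8.59e-04), with no overlap between groups. The value was 0.46 without 24 h replicate 2, 0.49 without control replicate 3 and 0.47 without control replicate 5, inside the limit. In SH-SY5Y at 5 days it was at 251, 265, 252, 335 and 377 CPM against 355, 360, 383, 375 and 420 CPM in control. All 5 replicate numbers were lower there, and the difference was -0.42 ± 0.10 (adjusted p = 0.0013), inside the limit, or -0.54 without 5 day replicate 5. The 7 day SK-N-BE(2)C libraries held 193, 317, 413, 331 and 298 CPM against 189, 192, 238, 226 and 244 CPM, a difference of 0.47 ± 0.16 (adjusted p = 0.0152), with replicate 1 inside the control range. Without the 7 day library of replicate 1 the value was 0.58, and without control replicate 5 it was 0.50, both past the limit. The test of the difference itself gave 0.86 ± 0.18 between SK-N-BE(2)C and SH-SY5Y (adjusted p = 2.76e-04) and 0.70 ± 0.18 between IMR-32 and SH-SY5Y (adjusted p = 0.00234).

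TBX2 (ENSG00000121068, chr17:59477204-59486827) was called in IMR-32 at 5 days. Its controls held 80.3, 77.3, 52.7, 84.8 and 186 CPM, the 24 h libraries 112, 122, 72.8, 109 and 267 CPM, and the 5 day libraries 214, 163, 239, 176 and 308 CPM. Replicate 5 was the highest in each group and its control lay above 2 of the 5 day libraries, while each replicate number was higher than its own control, by 1.66 to 4.53 times at 5 days. The fold change was 0.54 ± 0.36 at 24 h (adjusted p = 0.274) and 1.18 ± 0.37 at 5 days (adjusted p = 0.0152). With the replicate number as a block the 24 h value was 0.55 (adjusted p = 0.0316) and the step from 24 h to 5 days 0.76 (adjusted p = 0.0061), and without replicate 5 these were 0.55 (adjusted p = 0.0284) and 0.87 (adjusted p = 0.00183). Without replicate 1 or replicate 3 in all groups the 5 day change had an adjusted p of 0.064 or 0.051. SK-N-BE(2)C (-0.11 ± 0.25) and SH-SY5Y (0.03 ± 0.06) did not pass the test at the longer time. The longer response of IMR-32 exceeded theirs by 1.27 ± 0.38 (adjusted p = 0.00867) and 1.10 ± 0.38 (adjusted p = 0.0255). The first had an adjusted p of 0.0544 or 0.0512 without replicate 1 or 4, and the second of 0.0653 to 0.107 without any 1 of replicates 1 to 4.

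**Figure D4:**
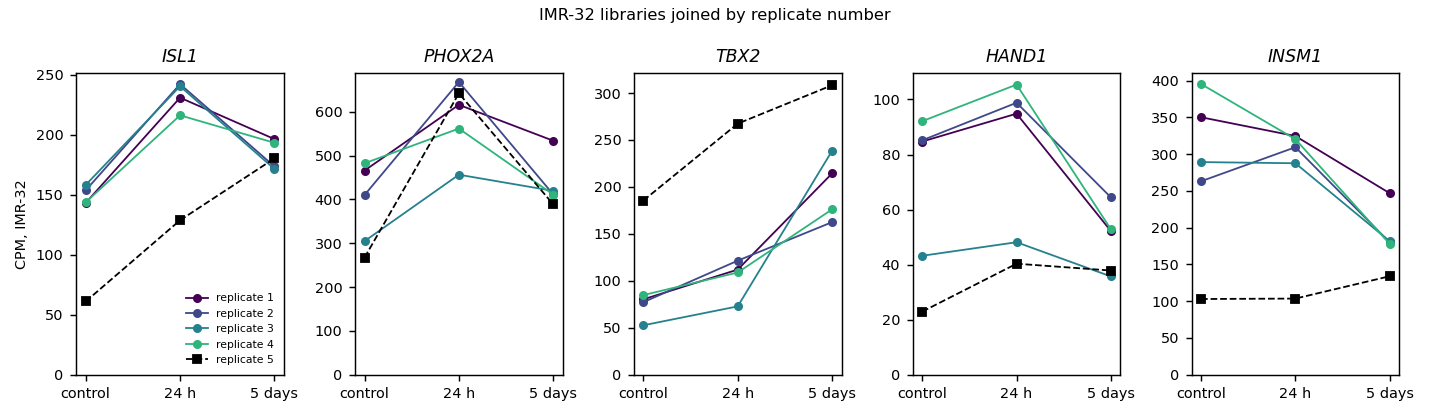
CPM of 5 factors in the 15 IMR-32 libraries, joined by replicate number across control, 24 h and 5 days; the dashed black line is replicate 5. TBX2 is higher and HAND1 lower at 5 days than at 24 h along every line, and replicate 5 starts lowest for ISL1, HAND1 and INSM1 and highest for TBX2.

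TFAP2B (ENSG00000008196, chr6:50786436-50815332) was higher at the longer time in both lines that had it. In SH-SY5Y it went from 423, 601, 463, 529 and 475 CPM to 820, 914, 787, 750 and 698 CPM, without overlap, by 0.60 ± 0.11 (adjusted p = 1.18e-04). In SK-N-BE(2)C it went from 231, 239, 183, 171 and 191 CPM to 404, 348, 219, 316 and 353 CPM, by 0.65 ± 0.16 (adjusted p = 0.00168). The 7 day library of replicate 3 was the only one inside the control range. At 24 h the changes were 0.42 ± 0.16 (adjusted p = 0.0378) and 0.21 ± 0.11 (adjusted p = 0.119), and the longer responses of these lines differed by 0.02 ± 0.19. In IMR-32 the 5 day libraries held 2, 2, 1, 1 and 2 counts, a total of 8 after 0 in control and 0 at 24 h.

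INSM1 (ENSG00000173404, chr20:20348748-20351593) was at 350, 263, 289, 395 and 103 CPM in untreated IMR-32, at 325, 309, 288, 320 and 104 CPM at 24 h and at 247, 180, 182, 178 and 134 CPM at 5 days. Replicates 1 to 4 were lower at 5 days than in control and replicate 5, the lowest in each group, was higher. Over all 5 numbers the difference at 5 days was -0.61 ± 0.33 (adjusted p = 0.136). Without control replicate 5 alone it was -0.82 (adjusted p = 0.0237). Without replicate 5 in all groups it was -0.73 (adjusted p = 1.56e-04) and the step from 24 h was -0.72 (adjusted p = 3.06e-04), both called lower. With the replicate number as a block the step from 24 h was -0.50 (adjusted p = 0.0339). In SK-N-BE(2)C, replicates 1 and 2 held 28 and 25 of the 59 control counts, and PB gave -0.86 ± 0.83 at 24 h and -0.75 ± 0.84 at 7 days.

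Responses at 24 h were not told apart between the lines: edgeR called 0 of 8, 0 of 8 and 0 of 7 members for SK-N-BE(2)C against IMR-32, SK-N-BE(2)C against SH-SY5Y and IMR-32 against SH-SY5Y, where 4.49%, 2.04% and 3.07% of genes were called (5.34%, 2.39% and 3.57% of those with enough counts in both lines), and DESeq2 also called 0. At an unadjusted p under 0.05, a looser rule that more of all genes pass too, there were 1, 0 and 3. With the replicate number as a block, the 24 h response of TBX2 differed by -0.71 between SK-N-BE(2)C and IMR-32 (adjusted p = 0.0406) and that of ISL1 by 0.55 between IMR-32 and SH-SY5Y (adjusted p = 0.049). At the longer time 2 of 8, 1 of 8 and 2 of 7 were called, where 23.9%, 21.2% and 20.8% of genes were, or 26.5%, 23.1% and 23.1% of those with enough counts in both lines. These are the GATA2, GATA3 and TBX2 differences given above. With the block the longer response of HAND1 was also lower in IMR-32 than in SH-SY5Y, by -0.54 (adjusted p = 0.0495).

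Long noncoding genes are read from the opposite strand over or next to 4 of the factors, and HAND2-AS1 was called at the longer time in each line. HAND2-AS1, whose annotated start lies inside the HAND2 gene, was at 186 ± 20.1, 292 ± 55.3 and 666 ± 137 CPM (SD, n = 5) in control, 24 h and 7 days of SK-N-BE(2)C, and at 306 ± 33.0, 473 ± 41.0 and 741 ± 120 CPM in IMR-32 at its 3 times. In SH-SY5Y it was at 333 ± 29.1, 426 ± 28.2 and 569 ± 60.2 CPM. In each line the 24 h and longer libraries lay above all controls, and the longer fold changes were 1.80 ± 0.15, 1.26 ± 0.10 and 0.70 ± 0.08 (highest adjusted p = 4.59e-07), beside 0.44, 0.31 and -0.01 for HAND2. Exons of HAND2-AS1 lie over 867 of the 3601 exon bases of HAND2, and no source used here states which strand was counted, so reads of the pair in the shared stretch cannot be told apart.

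GATA3-AS1 was higher with longer PB in IMR-32 and SK-N-BE(2)C (0.92 ± 0.27, adjusted p = 0.00649, in the latter and 0.72 ± 0.12, adjusted p = 1.52e-04, in the former), and gave 0.11 ± 0.10 in SH-SY5Y, where GATA3 gave -0.42. TBX2-AS1 was higher in IMR-32 (1.38 ± 0.24, adjusted p = 2.6e-04), together with TBX2. The SK-N-BE(2)C value was 0.68 ± 0.28 (adjusted p = 0.0424), a call that was lost with replicates 3 to 5 alone (0.71, adjusted p = 0.051), without any 1 of the 5 controls and without 7 day replicate 2 (0.59, adjusted p = 0.0983) or 3 (0.40, adjusted p = 0.166). GATA2-AS1 fell at 24 h in SH-SY5Y (-0.54 ± 0.11, adjusted p = 5.08e-04) and in SK-N-BE(2)C (-0.68 ± 0.18, adjusted p = 0.00583), where GATA2 gave 0.36 and 0.35. At the longer time GATA2-AS1 gave -0.08 ± 0.11 and 0.35 ± 0.18. In each of these lines all 24 h libraries of GATA2-AS1 lay below all controls.

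**Figure D5:**
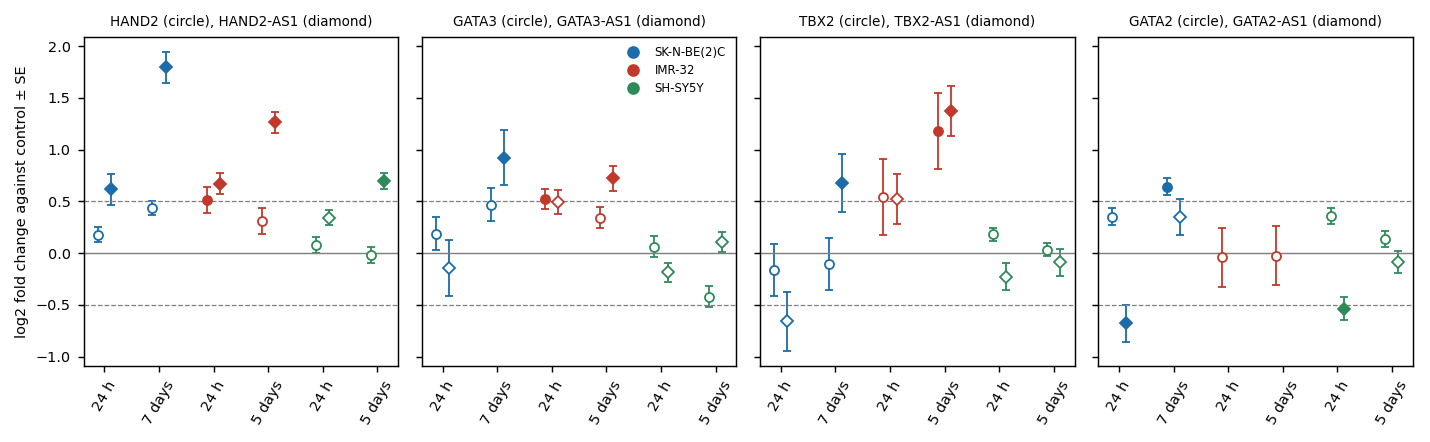
Log2 fold change against control with its SE for 4 factors (circles) and their opposite-strand noncoding genes (diamonds), at 24 h and at the longer time in each line. Filled symbols were called and dashed lines mark the limit of 0.5. HAND2-AS1 lies above HAND2 in all 6 comparisons, and GATA2-AS1 lies below GATA2 in all 4 that could be tested.

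Of 20 other adrenergic circuit genes, 17, 20 and 19 could be tested, and at the longer time 2, 4 and 0 were higher and 4, 3 and 5 lower, with medians of 0.09, 0.24 and -0.26. Of all genes 24.5%, 16.6% and 18.6% were higher and 22.3%, 15.5% and 17.3% lower. No gene of this list was called in the same direction in all 3 lines. Among those lower, SOX11, chosen after its values were seen, gave -1.42 in SH-SY5Y and -1.26 in SK-N-BE(2)C. Its value of 0.23 in IMR-32 was not called. TFAP2A fell by 1.14 in IMR-32, the line that lacks TFAP2B.

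Of 21 cofactors and inhibitors, 20, 20 and 18 could be tested, and 0, 3 and 0 were higher and 6, 3 and 8 lower at the longer time, where 22.3%, 15.5% and 17.3% of all genes were lower. The LIM-domain binding gene LDB2, which encodes a cofactor of ISL1, was lower in each line, by -0.82 ± 0.14 (adjusted p = 8.36e-05), -1.12 ± 0.20 (adjusted p = 3.49e-04) and -0.75 ± 0.27 (adjusted p = 0.0195). In SH-SY5Y that call was lost without 5 day replicate 2 (adjusted p = 0.0537) or control replicate 4 (adjusted p = 0.0579), and without replicate 2 or 5 in all groups (0.0757 or 0.0678). ID1, whose product keeps E proteins from pairing with HAND factors, was chosen after its values were seen and was lower in SK-N-BE(2)C (-1.06) and SH-SY5Y (-1.56), while IMR-32 gave -2.65 ± 1.91 (adjusted p = 0.262).

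Of 15 sympathoadrenal target genes, 15, 13 and 15 could be tested, and 7, 3 and 11 were higher at 24 h with none lower, with medians of 0.64, 0.46 and 0.80, where 10.9%, 7.87% and 10.5% of all genes were higher. At the longer time 7, 3 and 6 were higher, where 24.5%, 16.6% and 18.6% of all genes were, and 0, 2 and 1 lower. CHGA, a granin of secretory vesicles, was higher in each line at the longer time (1.02 ± 0.13, 1.23 ± 0.21 and 1.66 ± 0.19, highest adjusted p = 2.14e-04). So was PRPH, a neuronal intermediate filament (0.70 ± 0.22, 2.34 ± 0.30 and 0.60 ± 0.14, highest adjusted p = 0.0119), though in SK-N-BE(2)C it was 0.48 without 7 day replicate 3 and had an adjusted p of 0.0522 or 0.0508 without replicate 2 or 3 in all groups, and in SH-SY5Y it was 0.46 without replicate 4 in all groups. In IMR-32, DBH, the enzyme that makes noradrenaline, was lower (-4.09) while TH was higher (2.36), both chosen after their values were seen.

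Across the 45 libraries, after each line's mean was taken out, the members that could be tested in all 3 lines were most alike for HAND2 and GATA3 (Pearson r = 0.73) and for PHOX2A and HAND2 (r = 0.71), and least alike for HAND1 and TBX2 (r = -0.39). Of 12549 genes compared in the same way, those most like each factor were DDIT4 (r = 0.84), TRAPPC6A and NECAB3 for PHOX2A, TM7SF2 (r = 0.86), GPAT4 and GRK5 for ISL1, and PCBP4 (r = 0.88), WDR13 and ZSCAN18 for HAND2. For HAND1 they were RGS4 (r = 0.75), QPRT and PROS1, for GATA2 SHROOM3 (r = 0.75), ASTN2 and LINC01315, for GATA3 ZSCAN9 (r = 0.87), ZNF428 and LRFN4, and for TBX2 APBA1 (r = 0.80), SYNPO2 and TOB1. These libraries share treatment groups and replicate numbers, so the values describe likeness only.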

How the data were processed

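Gene-level counts of 45 RNA-seq libraries (9 groups of 5) were used as the authors deposited them, as whole-number read counts per gene from STAR's gene count option after TrimGalore trimming, on hg19. The submitters' processing notes name Trim Galore 0.6.4, STAR 2.6.1d and DESeq2 1.32.0. Neither the annotation nor the strand column is given in the sources used here. The strand matters where a gene overlaps its antisense partner. Deposited CPM tables and tables of the authors' own DESeq2 comparisons (fold changes and p-values) were not used. The members and gene lists were chosen with earlier results of these data known.

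Each line was fitted alone with edgeR 4.0.16 (R 4.3.3, TMM factors, robust quasi-likelihood test, filterByExpr with a minimum count of 10, a minimum total of 15 and a proportion of 0.7), and comparisons between lines used 1 fit of all 45 libraries. A call needs a Benjamini-Hochberg adjusted p under 0.05 over all genes tested and a log2 fold change beyond 0.5. Adjusted p-values come from these edgeR fits unless DESeq2 is named, and they measure the spread between passages of 1 cell line. Alternatives were DESeq2 1.42.0, RLE factors, library size alone, no filter, no fold change limit, the replicate number as a block, 1 fit of all libraries, a non-robust fit, and leaving libraries out. Leaving a replicate number out of all 3 groups of a line, or keeping replicates 3 to 5 alone in SK-N-BE(2)C, was chosen after seeing the data. Intervals and floors are exact 95% limits or 3 counts, and cover counting error only.

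Same-numbered libraries deviated together from their group means. Over all genes the correlation of each same-numbered pair was 0.114 to 0.829 in IMR-32 and 0.109 to 0.332 in SH-SY5Y. In SK-N-BE(2)C it was 0.243 to 0.516 between control and 24 h but down to 0.0482 with the 7 day libraries, so the numbers were not taken to pair those. Between 24 h and 5 days in IMR-32 the same number was the closest match for 1 of 5 libraries. The other IMR-32 and SH-SY5Y pairs of groups had 3 to 5, and those of SK-N-BE(2)C 2 or 3. Block results for that IMR-32 step rest on this weak pairing. No 2 replicates agreed within sampling noise (chi-square per degree of freedom 1.69 to 86.9 over 90 pairs). Library totals had a median of 18494528 counts. Counts were also simulated with the same spread for every gene, no outlying replicate and no shared deviation of same-numbered libraries. For changes of 0.75 (log2) at 24 h the fit recovered 80% of 65 in SK-N-BE(2)C, 90.6% of 64 in IMR-32 and 89.2% of 65 in SH-SY5Y. The real libraries did not meet that setting, so these shares do not measure the power for the members. In IMR-32 at 24 h, TBX2 at 0.54 ± 0.36 (log2, SE) was not called.

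Genes outside the 9 members were named where a list gene was called in the same direction in all 3 lines at the longer time (up to 4 a list), where it is a tested antisense neighbour, or where it was among the 3 genes most correlated with a member. Others are said to be chosen after their values were seen. Coordinates and exon lengths come from GENCODE v44lift37 on GRCh37, matched by symbol. PRRX1, SOX10 and FABP7 were not analysed here.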

Additional observations from a re-analysis of the deposited data

Results flagged for a closer look

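In 6 of 75 groups of 5 libraries tested, 1 member's library stood further from the others than Dixon's 95% limit allows, where chance gives about 1 in 20. All were IMR-32 libraries, and 5 of them were replicate 5. ISL1 in replicate 5 was the lowest of its group in control (61.03 CPM) and at 24 h (128.7 CPM). TBX2 in replicate 5 was the highest in control (185.5 CPM) and at 24 h (267.4 CPM). INSM1 in replicate 5 was the lowest at 24 h (103.6 CPM). PHOX2A was highest in replicate 1 at 5 days (534.0 CPM).

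In replicate 5 the summed mesenchymal markers were also above the other 4 replicates at each time, and the summed proliferation markers too (3024 against 2081 to 2322 CPM in control). Their part in the member values was not tested.

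The longer response differed between lines by a test of the difference itself for 3 members, in log2 units. For GATA2 it was 0.696 higher in SK-N-BE(2)C than in IMR-32. GATA3 differed by 0.859 between SK-N-BE(2)C and SH-SY5Y, and by 0.705 between IMR-32 and SH-SY5Y. For TBX2, SK-N-BE(2)C minus IMR-32 was -1.268 while IMR-32 minus SH-SY5Y was 1.097. Line and length of treatment cannot be told apart in the differences that involve SK-N-BE(2)C.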

How the results depend on the processing

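Some member calls were lost on the log2 limit of 0.5. In IMR-32 these were HAND2 and GATA3 at 24 h and the PHOX2A step from 24 h to 5 days. Elsewhere they were PHOX2A at 24 h in SH-SY5Y and GATA2 at 7 days in SK-N-BE(2)C. Others were lost on the adjusted p (ISL1 at 24 h and TBX2 at 5 days in IMR-32). The PHOX2A call at 24 h in IMR-32 was kept in all 28 alternatives. In IMR-32 at 24 h, 2 members were called with DESeq2, RLE factors or library size alone, since GATA3 and HAND2 then fell inside the limit. In IMR-32 from 24 h to 5 days, the count was 0 with each of these, 2 with no filter and 3 in 1 fit of 45 libraries. At 5 days it was 3 in 1 fit of 45 libraries and 2 with no filter. Library size alone gave 4 in SK-N-BE(2)C at 7 days. For the longer response of SK-N-BE(2)C against SH-SY5Y, DESeq2 and RLE factors gave 2, GATA2 being the other. Library size alone shifted the median of all genes by -0.18 and -0.20 in untreated IMR-32 and SK-N-BE(2)C against SH-SY5Y.

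Without the fold change limit more genes were called, given here for 24 h, the longer time and the step between the treated times. In SK-N-BE(2)C they numbered 6577, 9993 and 8335 of 14055 genes tested. In IMR-32 they were 4738, 7296 and 4914 of 14293. SH-SY5Y had 7154, 9516 and 6331 of 14547, the last split into 3224 higher and 3107 lower. Members called were then 5, 5 and 2 for SK-N-BE(2)C, 5, 4 and 4 for SH-SY5Y, 2 at 5 days of IMR-32, and 2 for the longer response of SK-N-BE(2)C against SH-SY5Y.

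With the replicate block, 4 members were called in IMR-32 from 24 h to 5 days and 2 at 5 days. For the 24 h response, 1 each was called for SK-N-BE(2)C against IMR-32 and for IMR-32 against SH-SY5Y. Shares of all genes called with the block are not given, so these counts are not read against a background. Under the block INSM1 in IMR-32 at 24 h was 0.007 and the longer ISL1 response of SK-N-BE(2)C against IMR-32 was -0.059. Beyond these, those given in the report and the TBX2-AS1 call in SK-N-BE(2)C at 7 days (0.60, adjusted p = 0.0573, with numbers that were not taken to pair those libraries), the block changed no call of a value named there.

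With replicates 3 to 5 alone in SK-N-BE(2)C, 0, 2 and 0 members were called at 24 h, at 7 days and between these times, with ISL1 in place of GATA2 at 7 days. PHOX2A at 7 days was then -0.048, and from 24 h HAND1 was -0.176 and TBX2 -0.021.

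Signs changed for values near 0. The 24 h GATA2 response of SK-N-BE(2)C against SH-SY5Y was 0.009 with DESeq2 and with RLE factors, 0.013 with library size alone and 0.018 with no filter. In 1 fit of 45 libraries GATA2 in IMR-32 from 24 h to 5 days was -0.006 and HAND2 in SH-SY5Y at 5 days 0.005. With library size alone HAND2 there was 0.056, HAND1 in SK-N-BE(2)C at 7 days was 0, and untreated PHOX2A in SK-N-BE(2)C against SH-SY5Y was -0.109.

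Leaving out libraries gave 1 to 4 members called in IMR-32 at 24 h, 0 to 2 at 5 days and 0 to 3 between these times, and 0 to 1 in SH-SY5Y at 24 h and between its treated times. For the longer response the range was 0 to 2 for SK-N-BE(2)C against IMR-32, 1 to 2 for SK-N-BE(2)C against SH-SY5Y and 1 to 3 for IMR-32 against SH-SY5Y, and 3 to 5 for untreated IMR-32 against SH-SY5Y. Signs changed within these ranges of log2 values. GATA2 in IMR-32 ran from -0.278 to 0.118 at 24 h, -0.273 to 0.077 at 5 days and -0.232 to 0.252 between them, and INSM1 at 24 h from -0.215 to 0.201. In SK-N-BE(2)C, HAND1 ran from -0.205 to 0.075 at 7 days and -0.07 to 0.15 from 24 h, TBX2 from -0.326 to 0.037 and -0.151 to 0.212, and INSM1 from 24 h from -0.305 to 0.722. In SH-SY5Y at 5 days HAND2 ran from -0.075 to 0.026, TBX2 from -0.005 to 0.057 and GATA2-AS1 from -0.202 to 0.002. For the longer response of SK-N-BE(2)C against IMR-32, ISL1 ran from -0.058 to 0.146, PHOX2A from -0.088 to 0.148 and INSM1 from -0.569 to 0.422. TFAP2B against SH-SY5Y ran from -0.069 to 0.124, and the 24 h PHOX2A response of IMR-32 against SH-SY5Y from -0.021 to 0.138. Causes of these changes were not tested. INSM1 in SK-N-BE(2)C rests on 0 to 28 counts a library, and its counting error is wide.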
